A study of Mus musculus with 8 samples.

Results

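The regions described here are short stretches of H3K27me3 that lay beside acetylated chromatin without touching it. A consensus region is a stretch in which a peak of replicate 1 and a peak of replicate 2 of the same antibody share at least 1 bp. A bordering region is an H3K27me3 consensus region under 5000 bp long, on chromosomes 1 to 19 except 6, that overlaps no H3K27ac consensus region but has at least 1 within 5 kb of either edge. The rule gave 1475 bordering regions of 30517 H3K27me3 consensus regions in all, 4.83%. Of the consensus regions 24391 lay on the 18 chromosomes used and 23606 of those were under 5000 bp. These 23606 short regions divided into the 1475 bordering ones, 392 that overlapped H3K27ac and 21739 with no H3K27ac within 5 kb, called distant from here on. Members were chosen by the positions and lengths of the H3K27me3 and H3K27ac peaks, so every value of these 2 marks below is a description with no test.

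The peaks came from ChIP-seq of an immortalised melanocyte line from embryonic mouse skin, melan-Ink4a-Arf-1, also labelled melan-a. All libraries share the homozygous genotype Cdkn2a tm1RDp/tm1RDp, which alters the tumour suppressor locus that encodes Ink4a and Arf, and a medium with 200 nM of the phorbol ester TPA and 200 pM cholera toxin. Each of 3 antibodies, against SOX10, H3K27ac and H3K27me3, had 2 libraries from independent experiments, and an input library without antibody served as background for SOX10 and another for both histone marks. All libraries are of this 1 line, and no other line or untreated culture was compared. Kept tags per library, after duplicates were removed, ranged from 67060647 to 71987481 for H3K27me3, from 44416913 to 45583056 for H3K27ac and from 6440395 to 8985699 for SOX10. Redundant tags were 55% and 38% in SOX10 replicates 1 and 2, 16% and 23% for H3K27me3 and 4% and 3% for H3K27ac. Positions are in the mm9 build, of which no genome or gene annotation was used here, so regions are given by position, without genes or sequence, and the melanocyte label was not checked against marker genes. Regions on chromosome 18 were counted but are not named, and the ranks of named regions below leave them out.

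Lysine 27 of histone H3 can carry either an acetyl or a methyl group on the same residue, so 1 histone tail cannot hold both there. H3K27me3 is written by Polycomb repressive complex 2, through its catalytic subunits EZH1 and EZH2, and tends to spread along silent developmental genes, while H3K27ac is written by the acetyltransferases p300 and CBP at active promoters and enhancers. SOX10 is the neural crest transcription factor that drives the melanocyte programme and binds many acetylated enhancers.

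Bordering regions lay at all distances from acetylation up to the limit, with few that almost touched it. The gap, counted as the bases between the nearest edges, ran from 23 to 4999 bp with a median of 2697 bp and quartiles of 1500.5 and 3943.5 bp. Gaps under 500 bp were found at 73 of the 1475 regions, 4.95% (95% Wilson interval 3.95 to 6.18%), and gaps under 1 kb at 201, 13.6%. From there the number per kb of gap was 326, 295 and 303 between 1 and 4 kb and 350 between 4 and 5 kb. Between 5 and 10 kb, outside the rule, it was 343.7 per kb and between 10 and 20 kb 289.4 per kb. The first 500 bp thus held fewer regions than any later stretch of that length up to 5 kb, and beyond 1 kb the counts showed no step at the 5 kb limit. As the rule itself, 6.25% of short H3K27me3 regions were bordering (interval 5.95 to 6.56%).

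**Figure D1:**
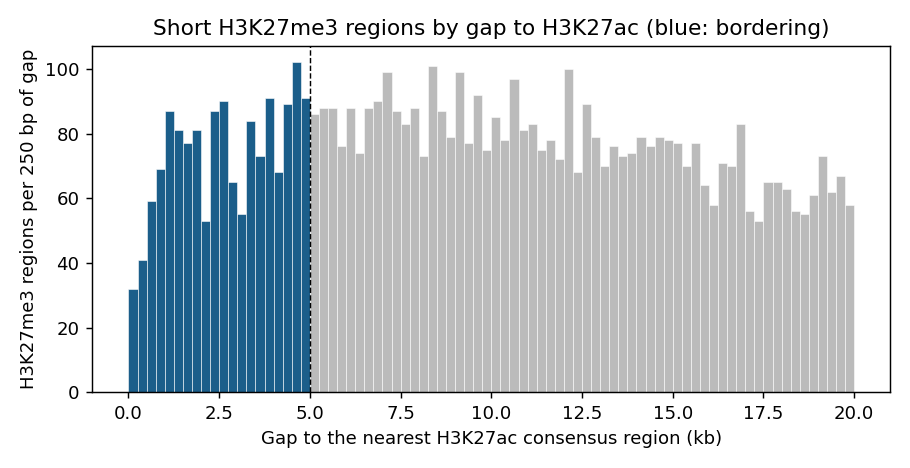
Number of short H3K27me3 regions (y) per 250 bp of gap to the nearest H3K27ac consensus region (x, in kb, up to 20 kb). Blue bars are the bordering regions, grey bars regions beyond the dashed 5 kb limit. The first bars, with 32 and 41 regions, are the lowest, and the bars on both sides of the limit, with 91 and 86, are alike.

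The limits cut through a continuous range of gaps and lengths. The last region inside the gap limit, on chromosome 11 at 119454407 to 119457449, had a gap of 4999 bp and an H3K27me3 fold enrichment of 5.46 in replicate 1 and 5.03 in replicate 2. The first outside, also on chromosome 11 at 96098843 to 96101509, had a gap of 5005 bp and folds of 5.03 and 6.34. By length, the last inside was 4971 bp long, on chromosome 12 at 80498226 to 80503196, and the first outside was 5103 bp long, on chromosome 8 at 130168532 to 130173634. Their folds were 7.65 and 6.34, and 7.21 and 5.46, in replicates 1 and 2.

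Acetylation usually stood on 1 side. H3K27ac lay within 5 kb to the left only at 662 regions, to the right only at 690 and on both sides at 123, 8.34% (interval 7.03 to 9.86%). The last share was 12.7% without H3K27ac replicate 1, 13.5% without replicate 2 and 2.67% with only peaks whose p score, 10 times the negative log10 of p, was at least 100. The 123 enclosed regions were shorter, with a median of 1063 bp, against 1273 bp for the 1352 with acetylation on a single side. The acetylated regions around them stood a median of 6305 bp apart, and from 1385 to 11055 bp. The tightest enclosure, on chromosome 11 at 115846861 to 115847914, was a 1054 bp region with gaps of 57 and 274 bp. It carried 37 and 36 H3K27me3 tags, near the members' lowest of 34 and 36, and folds of 4.81 and 4.37 in replicates 1 and 2. The H3K27ac region to its left had folds of 7.50 and 7.38 and the one to its right 9.63 and 8.63. On chromosome 17 at 35926859 to 35928412, a 1554 bp region with gaps of 269 and 758 bp had 69 and 79 tags. Between 2 H3K27ac regions 2375 bp apart on chromosome 11, at 95686258 to 95687469, replicate 1 gave 34 H3K27me3 tags and replicate 2 98. Tag counts, summed over each library's own called peaks, thus differed most there among the 4 tightest, with folds of 4.59 and 6.56. The local input background used at the nearest H3K27ac region was solved from its tags and p. It is not the input under the H3K27me3 region itself. Relative to the genome-wide level, it was 1.81 and 1.75 in replicates 1 and 2 at the chromosome 17 region. It was 1.17 and 1.16 at the tightest enclosure and 1.38 and 1.31 at the last region. The median near members was 1.25 and 1.18, and the part of input in these calls was not tested.

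Where acetylation came closest on a single side, the H3K27me3 folds showed no common direction from the members' median. The smallest such gap, 38 bp, was on chromosome 1 at 39926896 to 39928233, with 36 and 79 H3K27me3 tags and folds of 4.37 and 4.59. Outside chromosome 18, gaps of 64, 76 and 98 bp followed. These regions were at 87784254 to 87785506 of chromosome 17, at 82128602 to 82130426 of chromosome 1 and at 152486990 to 152487896 of chromosome 7. Their folds were between 4.15 and 4.37 in replicate 1 and between 4.59 and 5.46 in replicate 2. In replicate 1 these 4 were below the median of 5.03, and in replicate 2 a pair was above and a pair below the median of 5.25. A region on chromosome 18 with a gap between 64 and 76 bp, not named here, was above the median in replicate 1 and below it in replicate 2.

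Single-library acetylation often reached further than the consensus. Of the bordering regions, 130 overlapped an H3K27ac peak of replicate 1, 8.81%, and 205 a peak of replicate 2, 13.9%. At 294, 19.9%, a peak of at least 1 library lay in the region, and at 41 of them each library had a peak in the region but the peaks of the libraries did not share a base. Among distant regions the share with a peak of either library was 2.67%. The share fell with the gap, from 13.9% and 23.4% in replicates 1 and 2 at gaps under 1 kb to 4.86% and 9.14% between 4 and 5 kb. Those H3K27ac peaks were called in 1 library only at their place. An H3K27ac peak in or within 5 kb of the region was present in both libraries at 1450 of the 1475, 98.3%.

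The H3K27me3 signal of bordering regions was close to that of distant ones. MACS, the peak caller the authors used, gives the fold enrichment as tags at the summit over the input background. The H3K27me3 libraries are larger than their input, and whether their tags were scaled down before the fold was taken cannot be told from the lists. The H3K27me3 folds are therefore compared within a library and not read as absolute enrichment. The median fold was 5.03 in replicate 1 and 5.25 in replicate 2 in bordering and in distant regions alike. The mean log2 fold was 2.35 (SD 0.26 over regions) and 2.41 (SD 0.22) in bordering regions, and 2.38 (SD 0.29) and 2.42 (SD 0.24) in distant ones. The difference was -0.03 in replicate 1 and -0.01 in replicate 2, a mean of -0.020 ± 0.014 (SD, n = 2). It was small beside the SD among regions and turned to 0.0048 when only peaks with an FDR of at most 1% were kept. Median tags per region were 53 and 58 in bordering regions and 63 and 62 in distant ones, and median lengths 1262 and 1299 bp. Across the bordering regions, the log2 folds of both libraries correlated with r = 0.404, and across distant regions with r = 0.442. Regions of a list share libraries and are not replicates.

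Neither the gap nor the strength of the neighbouring acetylation went with the H3K27me3 fold. Over the 1475 regions, Spearman's rho between fold and gap was 0.0067 in replicate 1 and -0.043 in replicate 2. Between the H3K27me3 fold and the fold of the nearest H3K27ac region it was -0.0040 and 0.016. From gaps under 1 kb to gaps of 4 to 5 kb, the mean log2 fold moved between 2.34 and 2.36 in replicate 1 and between 2.39 and 2.45 in replicate 2.

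The regions that overlapped H3K27ac stood apart in replicate 1 only. Their median fold was 6.12 in replicate 1 and 5.25 in replicate 2, with mean log2 folds of 2.71 and 2.44 and median tags of 87 and 58. In bordering and distant regions, replicate 1 had the lower fold of the pair. The higher value of replicate 1 was thus found where the marks overlapped and not in the bordering regions.

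**Figure D2:**
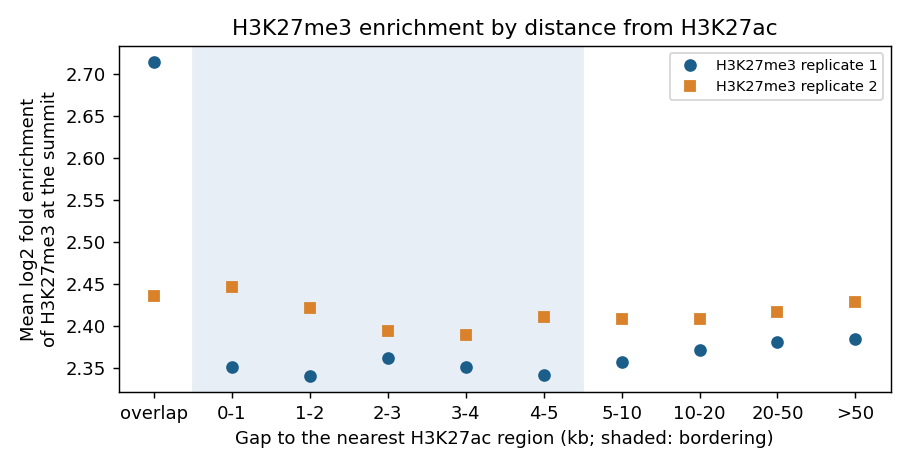
Mean log2 fold enrichment of H3K27me3 at the summit (y) for short regions that overlap H3K27ac and for those at increasing gaps from it (x, in kb), in replicate 1 (circles) and replicate 2 (squares). Within the shaded bordering range replicate 1 lies between 2.34 and 2.36 and replicate 2 between 2.39 and 2.45, and only replicate 1 at overlapping regions, at 2.71, is away from the other points.

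A few bordering regions were far stronger than the rest. The strongest, on chromosome 10 at 21861559 to 21863336, had 430 and 428 H3K27me3 tags and a fold of 29.1 ± 2.16 (SD, n = 2), with its H3K27ac neighbour 4542 bp away. Next came a 769 bp region on chromosome 16 at 57391434 to 57392202, enclosed by acetylation at 406 and 4813 bp, with folds of 18.8 and 20.5. A 1054 bp region on chromosome 9 at 123370585 to 123371638, enclosed at 4201 and 214 bp, had folds of 15.3 and 14.4. None of these 3 had another H3K27me3 region within 5 kb. H3K27me3 peaks were called against the genome-wide input level only, with no local window. The local background used at their nearest H3K27ac region was solved from its tags and p. It belongs to that H3K27ac region, not to the H3K27me3 region, and differed between replicates that share an input. Relative to the genome-wide level it was 1.24 and 1.13 in replicates 1 and 2 on chromosome 10, 1.54 and 1.53 on chromosome 9, and 1.62 in replicate 1 on chromosome 16. The median over H3K27ac regions near members was 1.25 and 1.18. This background was thus above the median at the H3K27ac neighbours on chromosomes 9 and 16. It does not give the input under the strong regions, and the part of input in their folds was not tested.

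The other 3 of the 6 strongest had folds near 10. On chromosome 17 at 36366291 to 36368931, a 2641 bp region had 218 and 228 tags and folds of 9.18 and 12.2, lay 904 bp from H3K27ac and belonged to a run of 9 H3K27me3 regions over 33482 bp. On chromosome 13 at 108683158 to 108684209 the folds were 9.62 and 10.9, with a gap of 1221 bp. On chromosome 4 at 129829219 to 129831141 they were 12.5 and 6.99, so replicate 1 exceeded replicate 2 there, in a run of 7 regions over 17689 bp. The background at the nearest H3K27ac regions of these 3, solved in the same way, was 1.59 and 1.60 on chromosome 17 in replicates 1 and 2. On chromosome 4 it was 1.41 and 1.61, and on chromosome 13 it was 1.19 and 1.11. The part of input in their folds was not tested either. The SD of the folds between libraries was 2.16 on chromosomes 10 and 17 and 3.87 on chromosome 4. Beside the fold itself, the spread was small at the 3 strongest and large at the one on chromosome 4.

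The longest members often had uneven tag counts between libraries. Tags were summed over each library's own called peaks, so the counts can cover unlike lengths of DNA. The 4971 bp region on chromosome 12 held 472 tags in replicate 1 and 154 in replicate 2, as 1 peak and 3 peaks. A 4864 bp region on chromosome 13 at 63151588 to 63156451 held 496 and 120, and a 4763 bp region on chromosome 7 at 20072475 to 20077237 held 349 and 172. The exception was the 4943 bp region on chromosome 16 at 94045061 to 94050003, with 317 and 325 tags and folds of 7.65 and 7.43. In the other 3 of the 4 longest, the peaks of replicate 1 thus held more tags than those of replicate 2. The summit folds of these 3, in the order given, were 7.65 and 6.34, 7.87 and 5.68, and 6.34 and 5.03.

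Bordering regions had fewer H3K27me3 neighbours than distant ones. No other H3K27me3 consensus region lay within 5 kb of 551 of them, 37.4% (interval 34.9 to 39.9%), against 28.7% (28.1 to 29.3%) of distant regions. A run is a chain of H3K27me3 consensus regions with gaps of at most 5 kb. Runs of 5 or more held 236 bordering regions, 16.0%, and 27.4% (26.8 to 28.0%) of distant ones. The 1475 regions belonged to 1150 runs. The longest of these counted 23 regions over 112648 bp.

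H3K27me3 continued on the side away from acetylation more often than towards it. Of the 1352 regions with acetylation on a single side, 659 had another H3K27me3 region within 5 kb on the far side, 48.7% (interval 46.1 to 51.4%), and 414 on the facing side, 30.6% (28.2 to 33.1%). Distant regions had one to the left in 50.3% and to the right in 50.4%, so the far side was at the level of distant regions and the facing side below it. At 434 regions the neighbour was on the far side only, at 189 on the facing side only, at 225 on both and at 504 on neither. At 350, 25.9%, another H3K27me3 region lay between the member and the acetylation, so these were not the outermost of their run. Within 5 kb the acetylated region itself takes up room on the facing side, as the rule requires.

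Coverage further out was also uneven. From 5 to 10 kb past the far edge, H3K27me3 peaks covered 18.5% of positions in replicate 1 and 16.8% in replicate 2. Over the same distance past the facing edge they covered 7.94% and 7.21%. Around distant regions the coverage was 19.9% and 20.1% to the left and right in replicate 1 and 18.5% and 18.7% in replicate 2. H3K27ac peaks did the opposite, with 10.2% and 10.8% on the facing side, 2.68% and 2.91% on the far side and between 0.766% and 0.919% around distant regions. Coverage on the facing side was thus lower for H3K27me3 and higher for H3K27ac in both libraries of each mark. Acetylated regions that start within 5 kb can run past it and the rule used both marks, so these values are not independent of the choice of members.

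**Figure D3:**
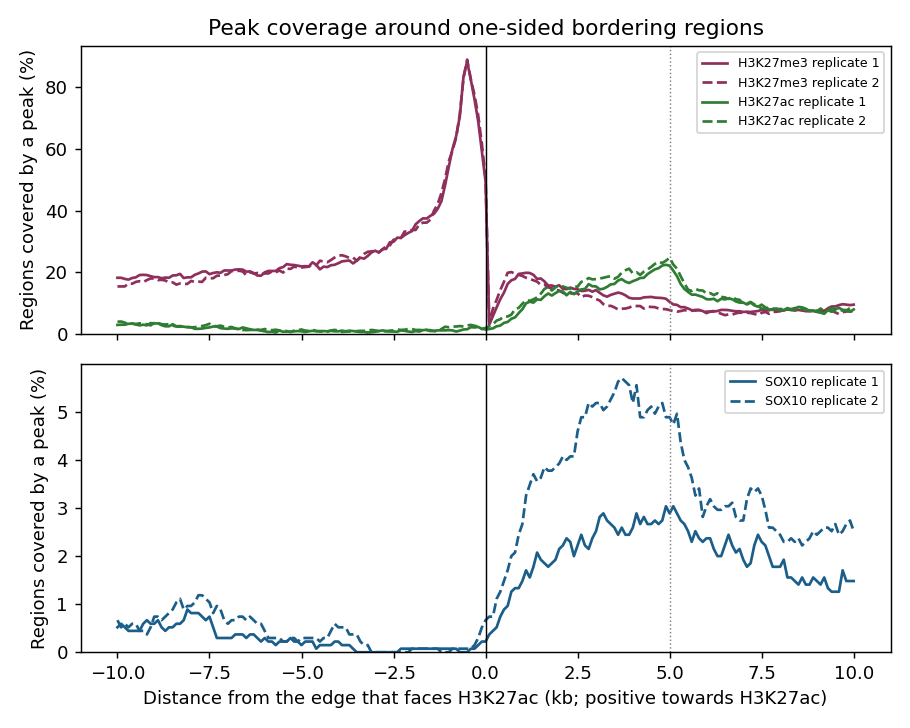
Share of the 1352 single-sided bordering regions (y, percent) that a peak covers at each distance from the edge facing H3K27ac (x, in kb, positive towards the acetylation), for H3K27me3 and H3K27ac (upper) and SOX10 (lower), replicate 1 solid and replicate 2 dashed. From 5 to 10 kb, past the dotted limit, H3K27me3 covers 7.94% and 7.21% of positions on the facing side against 18.5% and 16.8% on the far side, and SOX10 lies mainly on the facing side.

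The edge that faced the acetylation was about as variable between libraries as the other. Facing edges of both libraries lay within 200 bp of each other at 540 of the 1352 regions, 39.9% (interval 37.4 to 42.6%), and far edges at 498, 36.8% (34.3 to 39.4%). The median offset between libraries was 278 bp at the facing and 290 bp at the far edge. Where the offsets differed, the facing one was the smaller at 687 of 1343 regions, 51.2%. The summit lay nearer to the facing edge than to the far edge at 622 of 1350 regions in replicate 1, 46.1% (43.4 to 48.7%), and at 656 of 1350 in replicate 2, 48.6% (45.9 to 51.3%). The median summit position, as a share of the called span from the facing edge, was 52.7% in replicate 1 and 50.9% in replicate 2. Both libraries leaned slightly away from the acetylation, and this lean was not tested.

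The acetylated neighbours were somewhat weaker and narrower than other H3K27ac regions. H3K27ac regions within 5 kb of a member numbered 1741, 5.12% of the 34013 on these chromosomes, and 104 of them had a member within 5 kb on both sides. Their median fold was 8.33 in replicate 1 and 8.30 in replicate 2, against 8.74 and 8.57 for the 32035 other regions that overlapped no H3K27me3. Mean log2 folds were 3.05 in both replicates, against 3.13 and 3.11, where the SD over regions was 0.34 to 0.35. The median width was 507 bp against 541 bp. The recovered input background, relative to the genome-wide level, was 1.25 and 1.18 near members and 1.23 and 1.17 elsewhere. The differences in fold had the same direction in both libraries and were small beside the spread among regions. The neighbours, unlike the others, could overlap H3K27me3 regions that are not members, and the part of this was not tested. Members at gaps under 1 kb had nearest H3K27ac regions with median folds of 7.87 and 7.70, and those at 4 to 5 kb of 8.47 and 8.16.

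SOX10, whose lists the rule did not use, was found beside bordering regions more often than beside distant ones. It overlapped them at a share near that of all short regions. A SOX10 consensus site overlapped 4 of the 1475, 0.271% (interval 0.106 to 0.695%), where the share over all short H3K27me3 regions was 0.148%. A site overlapped or lay within 5 kb of 130, 8.81% (7.47 to 10.4%), against 2.42% of all short regions and 1.80% (1.63 to 1.98%) of distant ones. With single libraries it was 12.1% of bordering regions for replicate 1, against 3.49% of all short regions, and 20.3% for replicate 2, against 5.72%. Regions that overlapped H3K27ac had a site overlapping or within 5 kb in 12.8% (9.81 to 16.4%). No p is given, because regions are not replicates and a permutation of 2 libraries against 2 cannot go below 0.333. The rule places H3K27ac within reach of every member and of no distant region. Since SOX10 sites overlap H3K27ac often, as given next, the higher share is not independent of the choice of members.

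Near single-sided regions, the sites lay mainly on the acetylated side. There the rule puts H3K27ac within 5 kb on the facing side and none within 5 kb on the far side. SOX10 was counted over the same 5 kb, so the shares by side are not independent of the choice of members. Of the 1352 single-sided regions, 107 had a SOX10 site within 5 kb on the facing side, 7.91% (interval 6.59 to 9.48%), and 8 on the far side, 0.592% (0.300 to 1.16%). Peaks of replicate 1 gave 10.9% and 1.18%, and peaks of replicate 2 gave 18.6% and 1.55%. For distant regions a site was found to the left of 0.860% and to the right of 0.819%, with intervals that overlap that of the far side. In all, 110 SOX10 sites overlapped or lay within 5 kb of a member, and 76 of them, 69.1% (59.9 to 77.0%), overlapped an H3K27ac consensus region. Of the 3487 sites on these chromosomes that were near neither a bordering nor a distant region, 55.8% did. Of the 241 sites near distant regions only, 9 did, 3.73%. The rule sets H3K27ac within 5 kb of every member and of no distant region. These shares are therefore not independent of the choice of members. The 110 sites had median SOX10 folds of 9.54 and 9.73 in replicates 1 and 2, against 11.1 and 11.0 for those 3487.

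**Figure D4:**
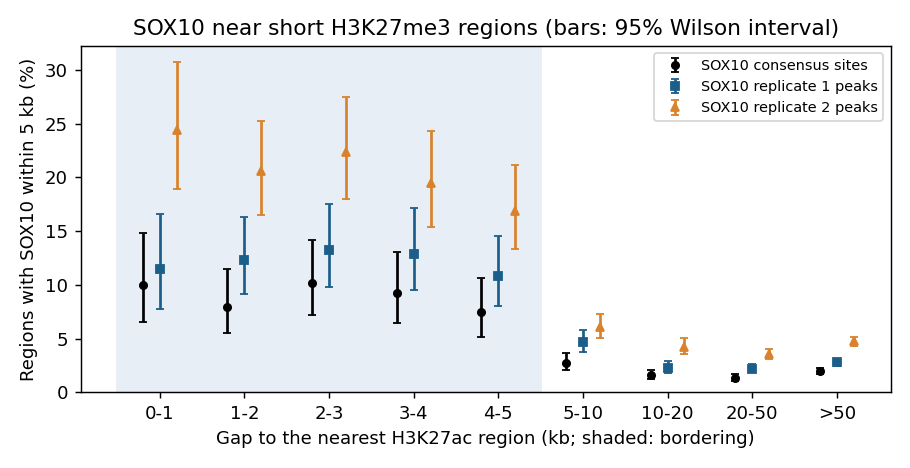
Share of short H3K27me3 regions with SOX10 overlapping or within 5 kb (y, percent, with 95% Wilson intervals) by gap to the nearest H3K27ac region (x, in kb), for SOX10 consensus sites and for the peaks of each library. In the shaded bordering range the consensus share is between 7.43% and 10.2%, and from 5 kb on it is between 1.35% and 2.74%.

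Within the bordering range the share with a SOX10 consensus site had no steady order with the gap. It was 9.95% (interval 6.53 to 14.9%) at gaps under 1 kb, 10.2% between 2 and 3 kb and 7.43% (5.12 to 10.7%) between 4 and 5 kb, with intervals that overlap. The share with a peak of SOX10 replicate 1 was between 10.9% and 13.2% in the 5 classes of 1 kb. With peaks of replicate 2 it was 24.4% at gaps under 1 kb, then 20.6%, 22.4% and 19.5%, and 16.9% between 4 and 5 kb. In that library it was thus lower at the far end. SOX10 was counted only within 5 kb of the H3K27me3 region. At gaps of 4 to 5 kb, part of the neighbouring H3K27ac region can lie outside that window, so no trend is read from this. All 4 regions that a SOX10 site overlapped had gaps under 1 kb. Each of these sites crossed an end of its region and lay partly outside it. These 4, chosen after their values were seen, were at 85740107 to 85741188 of chromosome 11, at 17950769 to 17952007 and 168426169 to 168426924 of chromosome 2, and at 30688197 to 30691484 of chromosome 3. Their SOX10 folds were low, 5.63 to 8.21 in replicate 1 and 4.88 to 7.79 in replicate 2. The input background solved under these sites was 1.54 to 2.45 in replicate 1 and 2.23 to 3.42 in replicate 2. These values are relative to all 12059585 kept input tags over the genome size. Both SOX10 libraries are smaller, at 6440395 and 8985699 kept tags, and the larger library is scaled to the smaller. That scaling was not undone, so the values are not multiples of the genome-wide level and cannot be compared between replicates. The part of input in these sites was not tested.

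Per acetylated region, SOX10 was less frequent beside bordering regions than elsewhere. Of the 1741 neighbouring H3K27ac regions, 100 overlapped a SOX10 site, 5.74% (interval 4.75 to 6.94%). This compares with 9.54% of all H3K27ac regions on these chromosomes and 9.81% (9.49 to 10.1%) of the other 32035. The other 32035 overlapped no H3K27me3, but the neighbours could overlap H3K27me3 regions that are not members. Peaks of SOX10 replicate 1 gave 6.89% against 11.2%, and those of replicate 2 gave 12.4% against 17.3%. The neighbouring regions were narrower, and in both sets the share was lower in narrower classes, which were chosen after seeing the data. Among H3K27ac regions of at least 800 bp, 9.09% (6.51 to 12.6%) of 352 neighbours overlapped a site, against 16.2% (15.5 to 17.1%) of 8432 others. From 400 to under 800 bp it was 5.47% (4.11 to 7.24%) against 8.90% (8.44 to 9.37%), and under 400 bp 4.06% (2.72 to 6.02%) against 5.38% (4.94 to 5.86%), where the intervals overlap. From the narrowest class to the widest the difference was -1.32, -3.43 and -7.16 percentage points. The difference was not tested, nor was the part of width or of the unlike H3K27me3 filter in it.

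**Figure D5:**
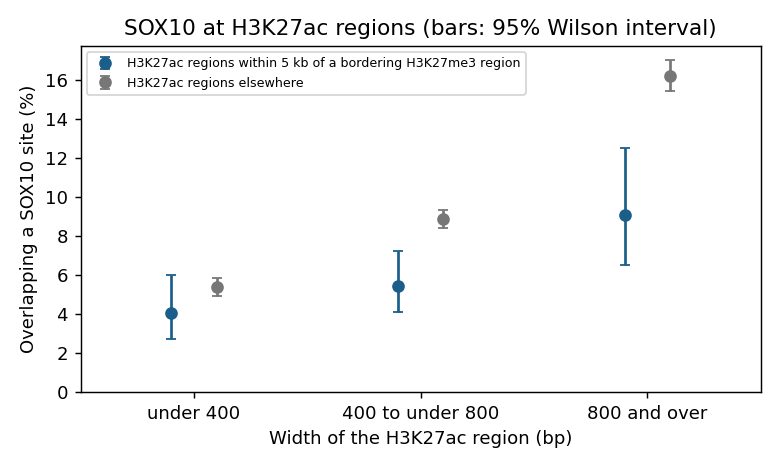
Share of H3K27ac consensus regions that overlap a SOX10 site (y, percent, with 95% Wilson intervals) in 3 classes of width (x, in bp), for regions within 5 kb of a bordering H3K27me3 region (blue) and for the other regions that overlap no H3K27me3 (grey). Blue regions, unlike grey ones, could overlap H3K27me3 regions that are not bordering. Blue points lie below grey ones in each class, and the intervals are apart at 400 bp and over.

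Of the 6 members with the strongest SOX10 sites, 3 surrounded 1 acetylated stretch. On chromosome 7, an 880 bp H3K27ac region at 150511649 to 150512528, with folds of 9.62 and 7.00, lay within a run of 8 H3K27me3 regions over 25464 bp. It overlapped a SOX10 site at 150510624 to 150511750 with 83 and 129 tags and folds of 23.8 and 26.2. Of the members around it, 1 lay to its right, at 150515430 to 150517756, and 2 to its left, at 150509440 to 150510583 and 150504999 to 150509384. The nearest of them ended 40 bp from the SOX10 site and had 42 and 39 H3K27me3 tags with a fold of 5.25 in both replicates. The longest had 279 and 262 tags and a fold of 5.90 in both. H3K27me3 was thus called in both libraries on either side of the SOX10 site.

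The other 3 members had a strong SOX10 site each. On chromosome 5, the member at 140131963 to 140132981 was enclosed by H3K27ac 562 and 214 bp away, with 39 and 37 H3K27me3 tags. A SOX10 site 651 bp from it, had folds of 14.8 and 26.9. On chromosome 2, the member at 60829899 to 60832328 held 38 H3K27me3 tags in replicate 1 and 208 in replicate 2, and its SOX10 site, 4778 bp away, had folds of 19.8 and 29.3. On chromosome 7, the member at 148546066 to 148546941 had 36 and 40 H3K27me3 tags, and a SOX10 site with folds of 20.3 and 22.7 lay 3692 bp away. H3K27me3 tags were few in both libraries at the members on chromosomes 5 and 7. At the one on chromosome 2 the tags of the called peaks were uneven, while the H3K27me3 folds were 5.03 and 5.25. The local background at the H3K27ac region nearest to the chromosome 5 member was 1.88 and 1.61 times the genome-wide level in replicates 1 and 2. It was 1.59 and 1.52 for the chromosome 7 member and 1.07 and 1.11 for the chromosome 2 member. These values are not the input under the members. The part of input in these calls was not tested. The SOX10 sites of all 6 members overlapped H3K27ac.

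Bordering regions were spread over all 18 chromosomes. Their share of short H3K27me3 regions had a median of 6.22% and ran from 4.94% on chromosome 2 (135 regions; interval 4.19 to 5.82%) to 8.17% on chromosome 17 (104 regions; 6.79 to 9.80%). Over the 18 chromosomes it went with the number of H3K27ac regions per short H3K27me3 region with r = 0.449, a description over chromosomes that share all libraries. Both quantities are divided by the same count of short H3K27me3 regions and the rule uses H3K27ac, so nothing is concluded from this r.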

How the data were processed

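The authors called peaks in each library against its input with MACS 1.4.2 at a p cutoff of 1e-05, per the file headers, on mm9, per the submitters' processing notes. The aligner was not given in the sources used here. SOX10 and H3K27ac used a local background from 1000 and 10000 bp of input and H3K27me3 none, per the file headers. The deposited tag counts are whole numbers of tags per peak. The deposited -log10 p is multiplied by 10. The fold enrichment is the authors' ratio at the summit, and for H3K27me3 it moves in steps of 0.219, the worth of 1 tag in 200 bp of genome-wide input. Per the file headers the larger library is scaled to the smaller, but the lists do not show whether H3K27me3 tags were scaled before the fold was taken. The authors' FDR is in percent.

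Overlaps needed 1 bp. A consensus fold is the highest of each replicate's peaks there, and log2 folds are means over regions. Consensus tags are summed over each replicate's own peaks there, so the counts of the replicates can cover unlike lengths. Shares have 95% Wilson intervals, which cover counting error only. The input background under a peak was solved from its tags and p under a Poisson model, relative to input tags over the genome size. For SOX10, whose input is larger than either library, the scaling of the input was not undone. For H3K27me3, which lacks a local background, it was within 1% of that level at 96.7% and 95.0% of peaks. Functions were tested on simulated regions. Python 3.11.15, pandas 2.3.3 and scipy 1.17.1 were used. No test across libraries was made.

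The members and lists were chosen with earlier results of these data known. Regions were named by rank: the 6 strongest, the 4 longest, the 4 enclosed and the 4 single-sided ones with the smallest gaps, the 6 with the strongest SOX10 site within 5 kb, and those next to each limit. Members on chromosome 18 were counted but not named. Gene lists had no use, because the annotation given was of another build. Alternatives changed the limits, the peak thresholds, the overlap, chromosome 6 and the libraries.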

Additional observations from a re-analysis of the deposited data

How the results depend on the processing

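No paired analysis was possible because no result comes from a test. The number of bordering regions was 527 with a 2 kb limit, 3193 with 10 kb, 262 with a p score (10 times the negative log10 of p) of at least 100 and 392 with an FDR of at most 1%. It was 3864 and 3581 without H3K27me3 replicates 1 and 2, and 2671 and 2458 without H3K27ac replicates 1 and 2. These settings keep fewer or more peaks by construction. The share of short regions was 2.23%, 13.5% and 3.22% with 2 kb, 10 kb and the stricter p, and 5.35 to 11.3% with a library left out, of which 11.3% and 10.4% came without H3K27ac replicates 1 and 2. The enclosed share was 4.55%, 12.4% and 2.67%, and 9.08 to 13.5%, of which 12.7% and 13.5% came without H3K27ac replicates 1 and 2. The median gap was 1179, 5353 and 2946 bp, 2897 bp with the FDR limit, and 2467 to 2812 bp. The log2 fold difference to distant regions was -0.0051 with chromosome 6, 0.0048 with the FDR limit, which reversed it, and -0.034 to -0.0092 with a library left out, the lowest without H3K27me3 replicate 2 and the highest without replicate 1. The cause was not tested.

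The share with SOX10 within the limit was 16.0% with 10 kb, 3.82% with the stricter p, 3.32% with the FDR limit and 0.271% by overlap alone. It was 7.38 to 20.3% with a library left out, and 20.3% came without SOX10 replicate 1. In each of these settings it was above that of distant regions. By overlap alone the distant share was 0.138%, with intervals that overlap. In the other settings the rule places H3K27ac near members only, so the higher share is not independent of the choice of members. The SOX10 difference of neighbouring H3K27ac regions, -4.07 percentage points, was -2.12 with 10 kb, -1.48 with the stricter p and -0.94 with the FDR limit. In classes of width, chosen after seeing the data, it was -1.32 under 400 bp and -7.16 from 800 bp. With a library left out it was -4.89 to -2.76. Without H3K27me3 replicate 1 it was -2.78, and without H3K27ac replicates 1 and 2 -2.78 and -2.76. SOX10 depth, at 6440395 to 8985699 kept tags, limits what counts as a site.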
